A study of Bos taurus with 48 samples.

Results

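Liver from grazing dairy cows that calved after overfeeding or feed restriction at a prepartum body condition score (BCS) of 4 was compared 7 d after calving, as B4F125 (pasture offered at 125% of estimated energy requirements in the weeks before calving) vs B4F75 (75% of requirements). The comparison rests on the 12 of 48 two-colour arrays whose channels both hold day 7 liver, and these arrays were chosen by their labels. These 12 arrays also hold the BCS 5 groups fed alike, B5F125 and B5F75, which link B4F125 to B4F75. Each of the 6 possible pairs of treatments was hybridised on 2 arrays with the dyes swapped, so that 2 arrays set B4F125 directly against B4F75, 4 set B4F125 against a BCS 5 group and 4 set B4F75 against a BCS 5 group. The 12 arrays carry 24 cows, 6 per treatment, out of 32 cows sampled, and each cow is on 1 of them. Intake was set by the allowance of fresh pasture, no group fed at an intermediate level was used here, and all cows were biopsied through the skin on the same days relative to calving. The labels call the cows American Holstein, whereas the methods describe New Zealand Holsteins and their Jersey crosses of mixed age whose mean age and breed make-up were not equal across the treatments, so that feeding, age and breed cannot be told apart here.

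Around calving the dairy cow enters negative energy balance, and body fat and muscle are mobilised to supply milk synthesis. The liver then takes up large amounts of fatty acids, which are oxidised, turned into ketone bodies, re-esterified or exported in very low density lipoprotein, while glucose output, the acute phase response and the growth hormone and IGF axis are all reset. Condition at calving and the plane of feeding before it are known to alter how far fat is mobilised, which is the reason for asking what they leave behind in liver mRNA a week later.

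Each value is a log2 ratio of 2 liver samples, so it carries no level of a gene, and in a bulk biopsy fewer cells of a type cannot be told apart from less RNA per cell. The label liver could be checked only to the extent that 19 of 19 hepatocyte markers with a spot were measured on all 12 arrays. Of 43803 spots, between 11.992% and 21.489% were blank on a day 7 array. Many spots were dim: 41.383% of the day 7 values equalled the log2 of a ratio of 2 whole numbers no greater than 20 (within 2e-09), the share being 92.275% for spots with a blank and 19.281% for spots without. This share is given below as whole-number ratios, because a ratio of 2 small numbers moves in large steps. The first of the arrays that set B4F75 against B5F125 stood apart from the other 3 that set B4F75 against a BCS 5 group. Albumin (ALB), the main plasma protein made by hepatocytes, read 2.13 there and between −0.65 and −0.25 on the other 3. Some of the results that rest on this array are also given without it.

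Cell division genes lay lower in B4F125 than any other list described here, the neutrophil protein S100A9 was 3.15-fold lower, and the lists of carbohydrate, fat, cholesterol, urea and amino acid metabolism had medians within 0.15 of 0 on the log2 scale, apart from the 6 taurine and hypotaurine genes at −0.23. Of 13868 genes tested, 111 were called (p of at most 0.01 and at least 1.5-fold in either direction), which is 0.800%. They comprised 22 called higher in B4F125 (0.159%) and 89 called lower (0.642%), with differences of 0.62 to 3.08 in size. After Benjamini-Hochberg adjustment 0 genes passed in limma (0.00%), with a lowest adjusted p of 0.9998, and 595 genes (4.29%) had an unadjusted p under 0.05, so the adjusted p of every gene named below was at least 0.9998. Least squares without moderation called 12 higher and 34 lower, and likewise 0 after adjustment at a lowest adjusted p of 0.9998. The median over all genes was 0.02, and 52.6% were above 0. The direct arrays and the indirect path (B4F125 minus B4F75, each over the BCS 5 groups) gave the same sign for 7081 of 13804 genes (51.3%). All 109 called genes with both values had the same sign on both. A call favours such a match, since the fit draws on both paths, so the match is no separate support for the calls. Without the second direct array 70 genes were called higher and 84 lower, so that the split was much closer to even. Without the first B4F125 over B5F75 array 14 were called higher and 87 lower, against 30 higher and 70 lower without the first direct array. The called genes were mostly dim, with a median share of whole-number ratios of 91.67%, against 34.38% over all genes tested. On the genes with a value on all 12 arrays 52 calls were made (0.458%), and on those with 8 to 11 values 59 (2.36%). With the spots of mostly whole-number ratios removed, 18 genes were called higher and 19 lower among 9996.

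All signs follow a reading of each ratio as Cy5 over Cy3, which no label states. With the opposite reading every sign turns, and the split becomes 89 higher and 22 lower in B4F125. The 4 arrays that set day 7 of 1 cow against day −7 of another cow of the same treatment bear on this. Haptoglobin (HP), an acute phase protein known to be higher after calving, averaged −2.91 there for day 7 minus day −7, with 3 of 4 arrays below 0. FGF21, a hepatokine of negative energy balance, averaged −1.68 (3 of 3 below 0), and IGF1, known to be lower after calving, averaged 1.19 with 4 of 4 above 0. The growth hormone receptor GHR, also known to be lower after calving, averaged 0.14 with 2 of 4 below 0. Of 11 genes known to be higher after calving, picked after such values had been seen, 8 were below 0, while PDK4, the kinase that restrains pyruvate oxidation, averaged 0.67 with 4 of 4 arrays above 0. The direction of every difference below is therefore unsettled, whereas its size and its error do not depend on the reading. Directions that the study reported for this contrast are given with the genes it named.

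The gene with the lowest p was CENPP, a centromere protein of the kinetochore. On the 2 direct arrays it read −1.28 and −1.23. B4F125 over the BCS 5 groups gave −0.08, 0.12, −0.40 and −0.58, and B4F75 over the BCS 5 groups gave 2.64, 1.40, 1.23 and 1.20. Both sets of 4 arrays lay apart without overlap, and the fitted difference was −1.55 (SE 0.26), or 2.93-fold lower in B4F125. Leaving out the array that reads 2.64 gave −1.38, and CENPP was called without any 1 of the 12 arrays. Its share of whole-number ratios was 71.43%.

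RBM28, a nucleolar protein of ribosome assembly, read −1.01 and −0.84 on the direct arrays. It gave −0.14, −1.08, −0.97 and −0.72 for B4F125 over the BCS 5 groups, and 1.14, 0.94, 0.13 and 1.03 for B4F75 over them. The 2 sets did not overlap, and the difference was −1.23 (SE 0.22). Its 3 probes did not agree in size, since the probe with a value on all 12 arrays gave −0.47 (SE 0.28) and those on 8 and 7 arrays gave −1.90 and −1.66, so the probe without blanks did not pass the threshold by itself.

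MSX1, a homeobox transcription factor, had direct values of −1.81 and −3.68. B4F125 over the BCS 5 groups spread from −1.86 to 0.44 and B4F75 over them from −0.08 to 1.57, so the sets overlapped, and the difference was −2.05 (SE 0.45). GAS8, a subunit of the dynein regulatory complex of motile cilia, was at or below 0.04 on the B4F125 arrays and between 0.65 and 1.10 on the B4F75 arrays over the BCS 5 groups, with a difference of −1.14 (SE 0.27). HIP1, an adaptor of clathrin-coated vesicles, was below 0 on the 6 arrays that hold B4F125 and above 0 on the 4 that set B4F75 against a BCS 5 group, with a difference of −1.04 (SE 0.26).

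ALDH3A1, which oxidises aldehydes, had a difference of −0.95 (SE 0.23), and it missed the threshold without the second direct array (−0.81). MATN1, a matrix protein of cartilage, differed by −0.84 (SE 0.21). TBC1D10B, which switches off Rab GTPases, differed by −0.92 (SE 0.23), although the probe on all 12 arrays gave 0.05 and only its 2 dimmer probes were below 0, at −1.53 and −1.58, and the call was lost without the first direct array (−0.85). For GAS8, ALDH3A1 and MATN1 too, the probe on all 12 arrays gave a smaller value than the gene and was not called, at −0.40, −0.58 and −0.43. For RBM28, GAS8, ALDH3A1, MATN1 and TBC1D10B alike, the call therefore came with the probes that have blanks. The share of whole-number ratios was 55.56% for RBM28, 78.26% for MSX1, 69.57% for GAS8 and 87.5% for HIP1. It was 44.44% for ALDH3A1, 55.56% for MATN1 and 51.85% for TBC1D10B.

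Among genes called higher in B4F125 on all 12 arrays, MS4A7, a membrane protein of monocytes and macrophages, had no whole-number ratio on any array. Its direct values were 0.67 and 0.56, with −0.30, 0.09, 0.80 and 0.63 for B4F125 and −0.20, −0.64, −0.64 and −0.18 for B4F75 over the BCS 5 groups. The sets overlapped at 1 array, and the difference was 0.67 (SE 0.20). The call was lost without any 1 of 7 arrays (0.59 to 0.71), namely both direct arrays, both B4F125 over B5F75 arrays, the second B4F125 over B5F125 array, the second B4F75 over B5F125 array and the first B4F75 over B5F75 array. Beside it, 12 of 17 macrophage and Kupffer markers were above 0 with a median of 0.07, and 0 of them were called.

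SPON1, a secreted matrix protein, differed by 1.22 (SE 0.32) and PACRGL by 0.71 (SE 0.18). PACRGL was above 0 on the 10 arrays that hold B4F125 or B4F75, and higher on each B4F125 array than on each B4F75 array over the BCS 5 groups. RALGPS2, an exchange factor for Ral GTPases, differed by 0.63 (SE 0.18), and CEACAM19, of the carcinoembryonic antigen family, by 1.05 (SE 0.30). Each of these 4 calls was lost in at least 1 of the fits that left out an array. For SPON1 and PACRGL it was the second direct array (0.81 and 0.57). For CEACAM19 it was either direct array (0.76 and 0.94) or the second B4F75 over B5F75 array (0.92), and for RALGPS2 any of the 4 arrays of B4F125 or B4F75 over B5F75 (0.56 to 0.61). Unlike MS4A7, these genes had many whole-number ratios, with 81.25% for SPON1, 91.67% for PACRGL, 41.67% for RALGPS2 and 44.44% for CEACAM19.

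**Figure D1:**
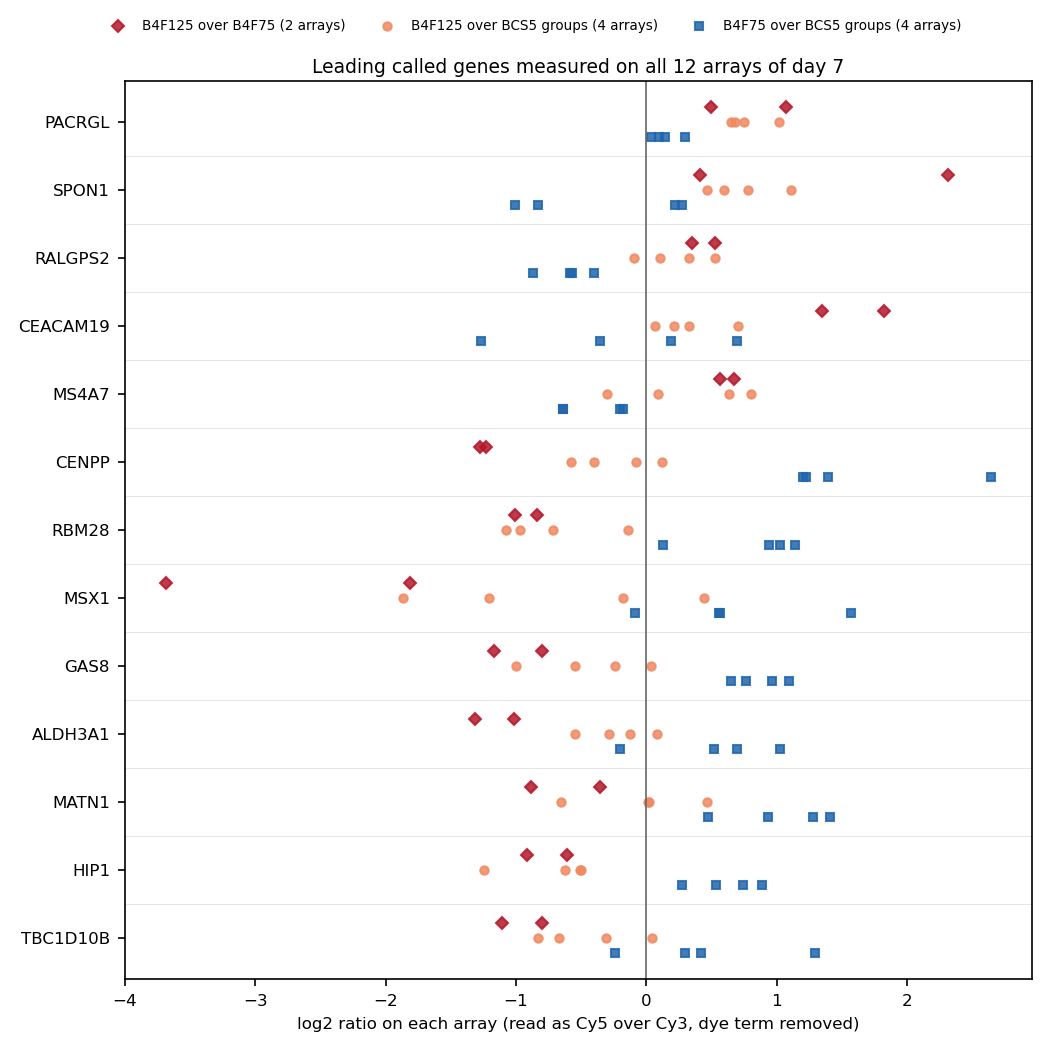
Log2 ratio on each array (x axis) of 5 genes called higher and 8 called lower in B4F125, with low p among genes on all 12 arrays (y axis), with diamonds for the 2 direct arrays, circles for B4F125 over BCS 5 groups and squares for B4F75 over BCS 5 groups. In CENPP the squares lie between 1.20 and 2.64 and the circles between −0.58 and 0.12, whereas in MSX1 circles and squares overlap.

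Genes with 8 to 11 values gave larger differences on fewer, dim spots. CXCR3, the receptor for interferon-induced chemokines on activated T cells, had no direct value, with 0.96, 0.40, 2.57 and 2.81 for B4F125 and −1.94, −0.34 and 0.37 for B4F75 over the BCS 5 groups, and a difference of 2.59 (SE 0.41). Those 2 sets did not overlap. Of the T and NK lymphocyte markers, 9 of 18 were above 0 and 0 were called. GPC5, a heparan sulphate proteoglycan of the cell surface, differed by 1.82 (SE 0.36) with direct values of 1.47 and 2.76. WIPF2, a binding partner of WASP in actin assembly, differed by 2.67 (SE 0.51) without any direct value, and TTC18 by 1.74 (SE 0.48). TTC18 missed the threshold without the first or the second direct array (1.56 and 1.55).

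Called lower on 8 to 11 arrays, TTLL9, a tubulin-modifying enzyme, differed by −1.62 (SE 0.32) and SOS1, the exchange factor that activates Ras, by −1.52 (SE 0.29). SOS1 read −1.76 and −1.34 directly, between −0.42 and −0.03 for B4F125 and between −0.01 and 1.91 for B4F75 over the BCS 5 groups, so that the sets lay side by side. CCDC54 differed by −1.47 (SE 0.30) and N4BP3, measured on 1 direct array, by −3.06 (SE 0.63). For these 8 genes the share of whole-number ratios was at least 95%.

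Cell division genes formed the list that lay farthest from all genes. Their products build the kinetochore and spindle, condense the chromosomes and drive entry into and exit from mitosis. Of 53 members measured, 49 were below 0 in B4F125 minus B4F75, with a median of −1.06 (−2.19 to 0.13), against a median of 0.02 over all genes tested. Of the members 4 were called lower and 0 higher, and 22 had a p under 0.05, which 4.29% of all genes had. The cell division genes belonged to the dimmer spots, with a median of 72.00% whole-number ratios, and 4 of 53 called lower stands beside the 0.642% of all genes. With the opposite channel reading, the same members are higher in B4F125. The direct arrays gave a list median of −1.09, the indirect path through the BCS 5 cows −0.85.

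BUB1B, a kinase of the spindle checkpoint, read −1.12 and −1.63 on the direct arrays. It gave −1.14, −1.16, 0.39 and 0.26 for B4F125 and 1.60, 0.95, 0.80 and −0.08 for B4F75 over the BCS 5 groups. The sets overlapped, and the difference was −1.30 (SE 0.35), or −1.18 and not called without the second direct array. The dye term removed from the BUB1B values was −1.38, and its share of whole-number ratios was 80.77%. The BUB1B probes that could be fitted alone gave −1.09 on 11 arrays, −1.25 on 7 and −1.89 on 5, and none was called. SPC24, a subunit of the NDC80 complex that ties microtubules to the kinetochore, was measured on bright spots, with 4.17% whole-number ratios.

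SPC24 read −2.08 and −2.31 directly, −0.83, −0.11, −1.27 and −0.76 for B4F125 and 0.34, −1.02, 1.46 and −0.43 for B4F75 over the BCS 5 groups. Its difference was −1.51 (SE 0.44), and the sets overlapped through 2 of the B4F75 arrays. Without the first or the second direct array it gave −1.30 and −1.22 and missed the threshold, as it did without the first B4F75 over B5F75 array (−1.32) or the first B4F125 over B5F75 array (−1.48). The dye term removed from the SPC24 values was −1.68, and a fit without a dye term called neither BUB1B nor SPC24.

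CENPN, which helps to assemble the centromere, read −1.25 and −1.21 directly, −0.37, −0.82, −0.42 and −1.05 for B4F125 and 1.69, 0.72, −0.46 and −0.04 for B4F75 over the BCS 5 groups, with a difference of −1.19 (SE 0.34). It was below 0 on the 6 arrays that hold B4F125. Its call was lost without either direct array (−1.16 and −1.18) or without the second B4F125 array over either BCS 5 group (−1.14 and −1.15). KIF4A, a motor protein of mitotic chromosomes, was 3.23-fold lower in B4F125, at −1.69 (SE 0.46), with direct values of −0.25 and −2.46, and it gave −1.32 and was not called without the second direct array. Whole-number ratios made up 50% of the values for CENPN and 88.46% for KIF4A.

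Members that missed the threshold included SPC25, a partner of SPC24, at −2.19 (SE 0.87), and CKAP2, a spindle protein, at −2.18 (SE 1.05). CKAP2 read 4.50 on the first B4F75 over B5F125 array and between 0.54 and 0.62 on the other 3 of B4F75 over the BCS 5 groups, and its difference without that array was −1.46. SPC25 was called without the second B4F75 over B5F125 array (−3.36), and CKAP2 without the first B5F125 over B5F75 array (−2.42). On the first B4F75 over B5F125 array SPC25 read 3.96, and its difference without that array was −1.75. At the other end, CKS1B, a subunit of cyclin-dependent kinases, was at 0.12 (SE 0.33) and SGOL2, which protects cohesion at centromeres, at 0.13 (SE 0.25). PLK1, a master kinase of mitosis, was at −0.25 (SE 0.21), so the spread within the list was wide.

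**Figure D2:**
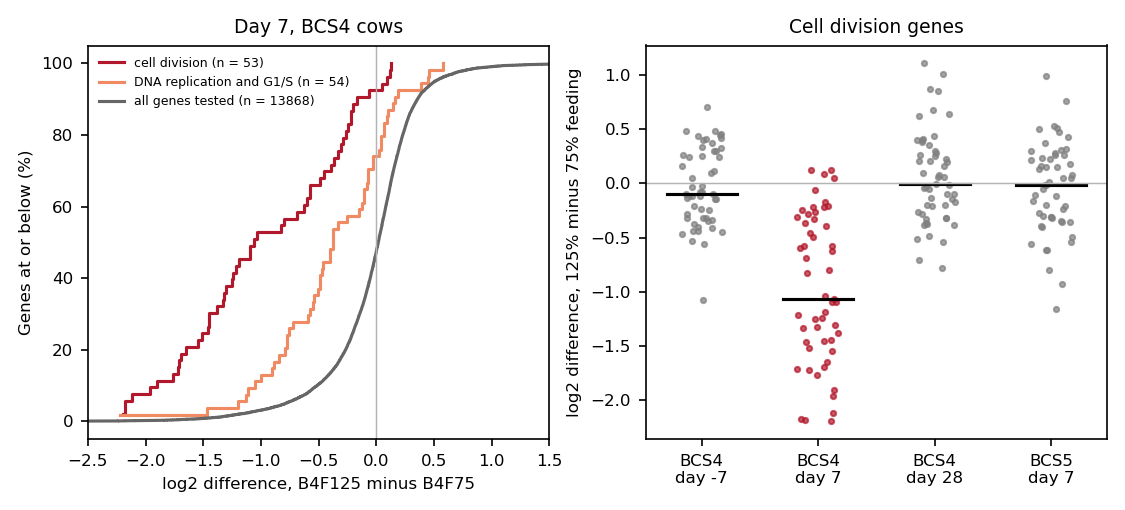
Left, cumulative share of genes (y axis, %) at or below each log2 difference of B4F125 minus B4F75 at day 7 (x axis) for cell division, for DNA replication and G1/S and for all genes tested. Right, log2 difference between 125% and 75% feeding (y axis) of each cell division gene in BCS 4 cows at days −7, 7 and 28 and in BCS 5 cows at day 7, with bars at the medians of −0.10, −1.06, −0.01 and −0.01.

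Taken array by array, over the 32 cell division genes on all 12 arrays, the list median was −0.69 and −1.10 on the direct arrays. It was −0.55, −0.56, −0.13 and close to 0 for B4F125 over the BCS 5 groups, and 1.10, −0.11, 0.11 and −0.15 for B4F75 over them. Among these 10 arrays the direct arrays and those of B4F125 over B5F125 were the lowest, whereas on the B4F75 arrays other than the first the list sat near 0. The 2 arrays of B5F125 over B5F75 read 0.70 and −0.85, so they opposed each other. All these values have the dye term removed, which had a median of −0.62 over the measured members of the list. The dyes are swapped between the 2 direct arrays, so how closely those arrays match depends on that term. In a fit without a dye term 49 members were below 0. Of the 32 genes, 27 and 28 were below 0 on the direct arrays, 24, 31, 18 and 16 for B4F125 and 3, 20, 11 and 22 for B4F75 over the BCS 5 groups. Without the first B4F75 over B5F125 array 47 of 51 members were below 0 with a median of −0.76. Without the second direct array 44 of 50 were below 0 and 0 were called. On genes with a value on all 12 arrays 29 of 32 were below 0 (median −0.76), and with spots of mostly whole-number ratios removed 22 of 28 (median −0.74, 3 called). The study's own table of strongly changed genes names some of these members. With those left out, 44 of 48 were below 0 (median −0.81). Listed or not, the members come from the same arrays and cows, so none is independent evidence of a direction. The part of dim spots in the list's shift was not tested beyond these values.

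DNA replication and G1/S genes, which copy the genome before mitosis, lay closer to 0. Of 54 measured, 40 were below 0, 0 were called, 6 had a p under 0.05 and the median was −0.38. RRM2, the small subunit of ribonucleotide reductase, was at −2.23 (SE 0.92), with direct values of −1.57 and −1.37. Over the BCS 5 groups RRM2 gave −3.05, −0.55, −0.54 and −1.40 for B4F125 and 5.59, −0.08, 0.62 and 0.26 for B4F75. The first of the B4F75 arrays lay far above the other 3, and the difference without it was −1.48. HELLS, a chromatin remodeller, was at −1.47 (SE 0.74) and −0.67 without the second direct array, the checkpoint kinase CHEK1 at 0.45 (SE 0.23) and cyclin E1 (CCNE1) at 0.58 (SE 0.36). On the first B4F75 over B5F125 array HELLS read 4.19, against −2.13 to −0.42 on the other 3 of B4F75 over the BCS 5 groups. Without the first B4F75 over B5F125 array only 31 of 53 members of this list were below 0, with a median of −0.10, and on that array its median was 1.21 against −0.40 to −0.15 on the other 3.

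**Figure D3:**
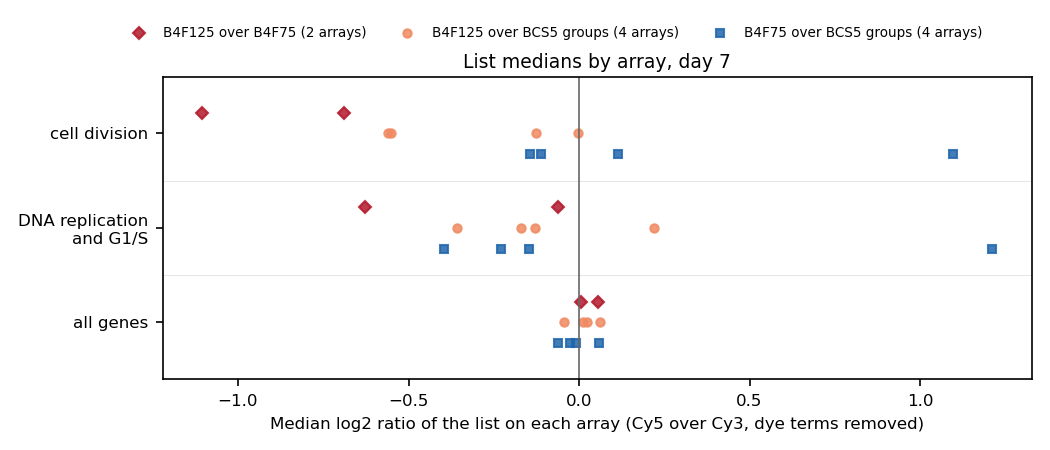
Median log2 ratio (x axis) of cell division genes, DNA replication and G1/S genes and all genes on each array of day 7, over genes with 12 values (y axis, lists), with diamonds for B4F125 over B4F75, circles for B4F125 over BCS 5 groups and squares for B4F75 over BCS 5 groups. The first B4F75 over B5F125 array, at 1.10 and 1.21, lies to the right of every other array in both lists.

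The calgranulins, calcium-binding proteins that make up much of the neutrophil cytosol, included 1 gene called lower in B4F125, S100A9, and 2 that missed the threshold. S100A9 read −1.36 and −1.31 on the direct arrays. B4F125 over the BCS 5 groups gave −1.94, −2.56, 0.28 and −2.11, and B4F75 over them gave −0.97, 0.64, 0.73 and 1.16. Apart from 1 B4F125 array, the B4F125 values lay below each of the B4F75 values, the difference was −1.65 (SE 0.43) or 3.15-fold, and the call held without any 1 array (−1.93 to −1.48). The probe without blanks gave −1.34 (SE 0.49) and was not called by itself. Of the S100A9 ratios 52.63% were whole-number ratios.

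S100A8, the partner of S100A9, had no whole-number ratio and read −0.52 and −1.81 directly, −0.12, −1.03, 0.64 and −1.86 for B4F125 and −0.59, −0.19, 1.01 and 1.48 for B4F75 over the BCS 5 groups. Its sets overlapped, and the difference of −1.09 (SE 0.42) missed the threshold. S100A12, with 2.78% whole-number ratios, gave −1.37 and −1.38 directly and a difference of −0.99 (SE 0.34), which was also not called. Without the first B4F125 over B5F75 array it was −1.21 and called, as it was without the second B5F125 over B5F75 array. The other neutrophil genes were not called. PADI4, which citrullinates histones, was at −0.82 (SE 0.29) and the cathelicidin CATHL1 at −0.92 (SE 0.98), near S100A12 in size. The integrin and receptor genes ITGAM and CXCR2 were at −0.49 (SE 0.47) and −0.47 (SE 0.38), and the proteases ELANE and MMP9 at −0.01 and −0.12. Of 19 neutrophil markers measured, 13 were below 0 with a median of −0.12, 1 was called lower, beside 0.642% of all genes, and 4 had a p under 0.05, beside 4.29%. By array, the median of the 16 neutrophil markers with 12 values was −0.28 and −0.21 on the direct arrays, −0.41 to 0.30 for B4F125 and −0.28 to 0.34 for B4F75 over the BCS 5 groups. The number of neutrophils in a biopsy was not measured, and its part in the S100A9 difference was not tested.

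Acute phase proteins, made mainly by hepatocytes, include genes that spread widely between arrays. HP read −2.45 and −0.29 directly, −1.85, −4.25, −3.74 and −0.22 for B4F125 and −3.57, −3.09, 4.01 and 1.37 for B4F75 over the BCS 5 groups. These sets overlapped across most of their range, and the difference of −1.78 (SE 1.23) was not called. Without the first B4F75 over B5F75 array HP was at −0.99. SAA4, a serum amyloid A, was at −1.31 (SE 0.60), transferrin (TF) at 0.24 (SE 0.18) and hepcidin (HAMP), which sets iron export, at 0.34 (SE 0.37). SAA4 was called without the first B4F75 over B5F125 array (−1.76). Of 27 acute phase proteins 15 were above 0 (median 0.04) and 0 were called. Without the first B4F75 over B5F125 array 9 were above 0 (median −0.18), and without the first B4F75 over B5F75 array 21 (median 0.21), so the side of 0 on which this list lay turned with 1 array. NOS2, the inducible nitric oxide synthase, was the called member of the inflammatory list, at −0.69 (SE 0.20), but its probe on all 12 arrays gave 0.09 and the call was lost without any 1 of 5 arrays (−0.73 to −0.60), namely the first direct array, the second B4F75 array over either BCS 5 group and both B4F125 over B5F75 arrays.

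**Figure D4:**
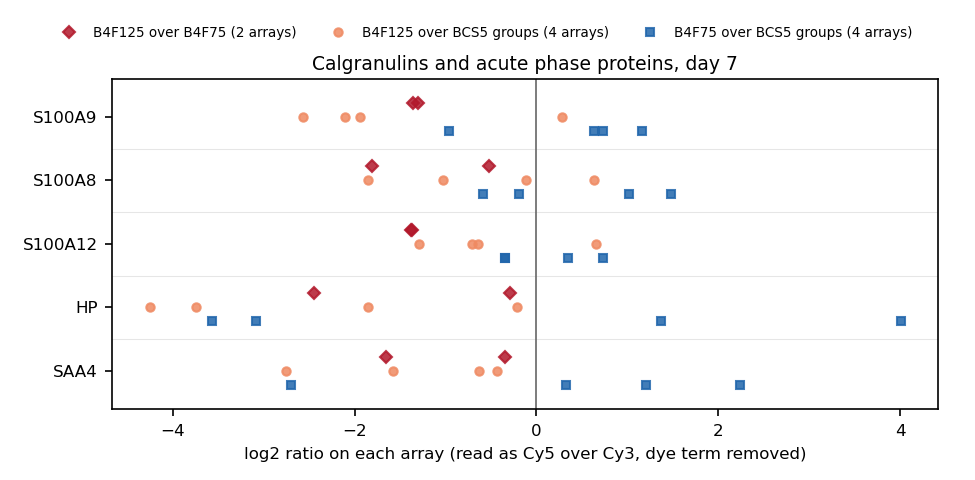
Log2 ratio on each array (x axis) of 3 calgranulins and 2 acute phase proteins (y axis), with diamonds for the 2 direct arrays, circles for B4F125 over BCS 5 groups and squares for B4F75 over BCS 5 groups. The S100A9 circles other than 1 lie between −2.56 and −1.94 and the squares other than 1 between 0.64 and 1.16, whereas HP runs from −4.25 to 4.01.

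Carbohydrate genes showed little difference. Of 20 gluconeogenesis genes 11 were above 0 (median 0.02) and 0 were called, and of 21 glycolysis genes 8 were above 0 (median −0.07) with 0 called. The glycogen list held 1 call lower among 20 genes, beside 0.642% of all genes. It was PYGM, the muscle isoform of glycogen phosphorylase, which had only whole-number ratios. PYGM read −0.74 and −3.09 directly, between −0.58 and −0.13 for B4F125 and between 1.15 and 1.35 on the 3 B4F75 arrays with a value. Its difference was −1.85 (SE 0.46), or −1.36 and not called without the second direct array. Of its 3 probes, the 2 that could be fitted alone opposed each other, at −2.05 on 8 arrays and 0.79 on 7.

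Fat metabolism had 0 calls in any list. Mitochondrial fatty acid oxidation had 13 of 20 genes above 0 (median 0.07), ketone body synthesis and use 5 of 7 (0.04), fatty acid synthesis 7 of 19 (−0.07) and triacylglycerol synthesis and storage 19 of 29 (0.11). Of 21 apolipoprotein and VLDL assembly genes 15 were above 0, with a median of 0.11. DGAT1, which catalyses the final step of triacylglycerol synthesis, was at 0.18 (SE 0.54). The study placed DGAT1 among its top changed genes, higher in B4F125, from its own model of all the arrays. MTTP, which loads lipid onto apolipoprotein B, was at 0.26 (SE 0.19), APOB itself at 0.01 (SE 0.22) and PPARA, the fatty acid sensor of the fasted liver, at −0.18 (SE 0.30). ACACB, which makes the malonyl-CoA that restrains mitochondrial uptake of fatty acids, was at 0.16 (SE 0.24), although its probe with most arrays gave −0.12. Cholesterol synthesis had 13 of 22 genes below 0 (median −0.11), with list medians of 0.78 and −0.97 on the 2 direct arrays, so those arrays opposed each other.

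Hormone axes held 2 calls lower, 1 in the growth hormone and IGF list (19 measured) and 1 of 37 nuclear receptors and hepatokines, beside 0.642% of all genes. PAPPA, the protease that frees IGF by cutting its binding protein IGFBP4, was at −1.81 (SE 0.43) with a direct value of −1.44, values of −2.62 to −0.69 for B4F125 and of 0.20 to 0.97 for B4F75 over the BCS 5 groups, which did not overlap. PAPPA had 93.33% whole-number ratios, and 14 of 19 members of the growth hormone and IGF list were above 0 (median 0.13). THRB, the thyroid hormone receptor beta, was at −1.69 (SE 0.43) on 9 arrays with 1 B4F125 array over a BCS 5 group, and was not called without the first direct array (−1.09) or without the first B4F125 over B5F125 array (−1.61).

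Of the genes that the study named or measured by qPCR for this comparison, the 15 followed here gave 0 calls. DGAT1 and ME1, which the study also named, are not among these 15. GPX3, MARS and GAD2 are among the genes that the study listed as strongly changed. Its mixed model drew on all 48 arrays and 32 cows, against 12 arrays and 24 cows here, so its calls and these are not on like terms. GPX3, the plasma glutathione peroxidase, was at −1.48 with an error of similar size (SE 0.93), its direct values being −2.34 and 0.16, and it gave −0.79 without the first B4F75 over B5F75 array. At day −7 GPX3 was called lower in B4F125, at −1.94 (SE 0.42). ABAT, which degrades GABA, was at 0.42 (SE 0.34) and GAD2, which makes it, at −0.34 (SE 0.67). Fitted alone, the 2 probes of GAD2 gave 0.20 on 8 arrays and 2.65 on 5, so neither lay below 0. Of the enzymes that build or modify glycosaminoglycans, UST was at 0.58 (SE 0.31), XYLT2 at 0.34 (SE 0.33), EXTL1 at 0.25 (SE 0.24) and DSE at −0.44 (SE 0.20). Their list had 18 of 37 genes above 0 with a median of −0.04. The methionyl-tRNA synthetase MARS was at −0.34 (SE 0.23), a value that came with a probe on 6 arrays (−2.06), since its probes on all 12 arrays were at −0.035 and 0.002. The malic enzymes ME2 and ME1 were at −0.33 (SE 0.23) and −0.60 (SE 0.56), the liver phosphofructokinase PFKL at 0.10 (SE 0.32) and ALB at 0.09 (SE 0.38). The study placed GPX3, MARS and ME1 higher in B4F75, and GAD2, PFKL and MTTP higher in B4F125. Read as Cy5 over Cy3, the fitted signs here were the same apart from GAD2. None of these genes was called here and the study used the same arrays, so the channel reading stays unsettled.

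**Figure D5:**
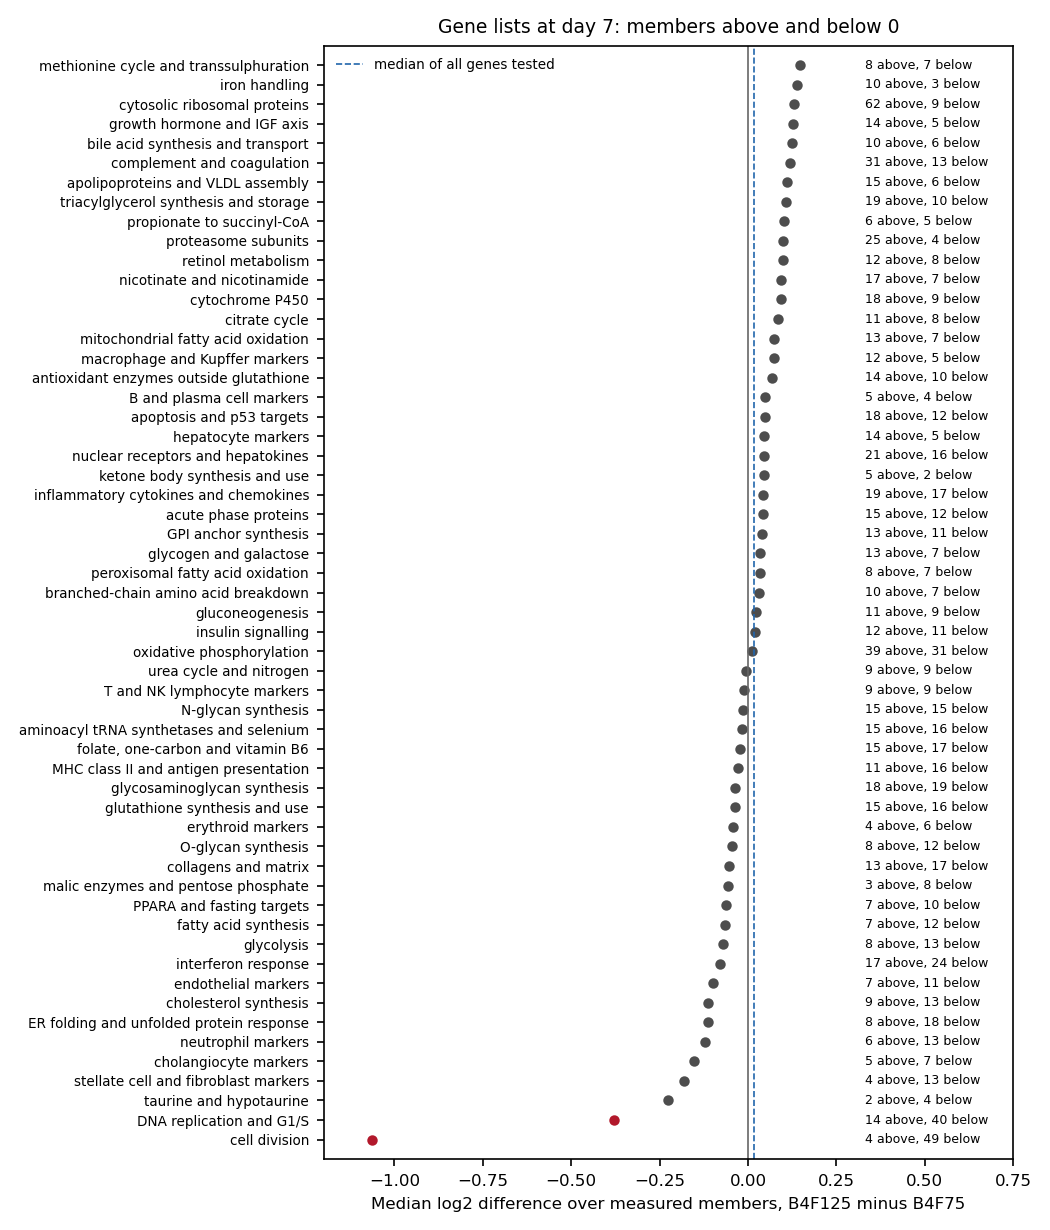
Median log2 difference of B4F125 minus B4F75 at day 7 (x axis) over the measured members of each of 56 gene lists (y axis), with the number of members above and below 0 and a dashed line at the median of all genes tested. Apart from cell division at −1.06 and DNA replication and G1/S at −0.38, every list lies between −0.23 and 0.15.

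Of the 30 called genes named above, 24 lost the call under at least 1 other setting of the processing. With all 48 arrays and a random block for each pair of cows 14 were not called, among them PACRGL (0.50), RALGPS2 (0.57), MS4A7 (0.54), GAS8 (−0.75), HIP1 (−0.84), PAPPA (−0.87), KIF4A (−1.29) and SPC24 (−1.53). On the probe of each gene with most arrays alone 17 of 29 were not called, among them SPON1 (0.79), HIP1 (−0.79), PAPPA (−1.32), BUB1B (−1.09) and KIF4A (−1.18), and without a dye term 10 of 30. CENPP, MSX1, CXCR3, SOS1, CCDC54 and PYGM kept the call under each of these settings that gave them a value, other than the adjusted p.

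Whether the response to feeding differed with condition was tested as the response in BCS 4 cows (B4F125 minus B4F75) minus that in BCS 5 cows (B5F125 minus B5F75) at day 7. It was called for 107 genes (0.772%), 25 more positive (0.180%) and 82 more negative (0.591%) in BCS 4 cows, with 0 after adjustment in limma (lowest adjusted p 0.9995) and 626 at a p under 0.05. Without the second direct array 57 genes were more positive. The genes named for this change were picked for their difference in BCS 4 cows, which is part of it, so their values are a description. S100A9 differed by −1.65 in BCS 4 and 0.51 in BCS 5 cows, a change in response of −2.16 (SE 0.61). KIF4A differed by −1.69 in BCS 4 and 0.50 in BCS 5 cows, a change of −2.19 (SE 0.68), and was the only cell division gene called. The cell division list had a median of −0.91 for this change, and in BCS 5 cows its median was −0.01 with 27 of 53 members below 0. That value lies between 2 direct BCS 5 arrays that opposed each other, with list medians of 0.70 and −0.85 and 4 and 29 of 32 members below 0, so it does not show that the list did not respond in BCS 5 cows. CEACAM19 (1.36, SE 0.43), GPC5 (2.35, SE 0.54) and WIPF2 (3.42, SE 0.58) were called more positive in BCS 4 cows. For CENPP the change of −1.03 (SE 0.37) missed the threshold, so a response particular to BCS 4 cows was not shown for it. CXCR3 was also called higher in B5F125 than in B5F75, by 1.62, and CCDC54 lower, by −2.09.

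The same 2 feeding groups on the other days gave other values for these genes. CENPP was at −0.26 on day −7 and −0.43 on day 28, and S100A9 at −0.07 and 0.01, and neither was called on either day. RALGPS2 was at −0.38 on day −7 and was called higher in B4F125 on day 28, at 0.87. Of the cell division genes, 31 of 53 were below 0 on day −7 (median −0.10) and 27 of 53 on day 28 (median −0.01). At these days 127 of 14316 genes (0.887%) and 208 of 14595 (1.43%) were called. The fits of these days draw on the same 24 cows, and a change between the days was not tested.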

How the data were processed

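The authors hybridised labelled RNA on two-colour Agilent bovine arrays, read them with a GenePix scanner and excluded poor spots, and what was deposited is a single log2 ratio of both channels for each spot. The methods describe lowess normalisation and array centring before their mixed model with cow as a random effect, but the medians of the deposited log2 ratios on the day 7 arrays lay between 0 and 0.5213, so each array was centred on its median here. Intensities were not used, so signal over background was not measured, and precision is limited by 12 arrays.

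Of 43803 spots, 33391 had a gene name. Written names lacked the digit 0, and 462 were restored through the RefSeq bovine gene table where 1 gene fitted, while 353 names that fitted several genes or had become dates were left out. Probes were averaged per gene and array (16275 names), and 13868 genes with at least 8 values were tested. Where the probes of a gene have different blanks, its arrays rest on different probes. Another 48 value columns, named by slide position, matched no sample label and were not used. No sequences or coordinates are given.

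In R 4.3.3, limma 3.58.1 fitted the means of 4 treatments and a dye term to the ratios read as Cy5 over Cy3, a direction that no label states (residual degrees of freedom 8, prior 3.27), and the script was tested on simulated data. The values given per array have the dye term removed. A gene was called at p of at most 0.01 and at least 1.5-fold, the thresholds of the methods, with Benjamini-Hochberg adjustment beside. The p-values measure the spread between these arrays of different cows. Named were, in each direction, up to 8 called genes with the lowest p on all 12 arrays and up to 4 on 8 to 11 arrays, called members of the lists, the extreme uncalled members of lists described, and 15 genes the study named. Some genes that this rule names are not reported here. PLK1, ITGAM, CXCR2, ELANE, MMP9, PADI4, CATHL1, DGAT1 and ME1 were added after their values were seen. The comparison, lists and rule were chosen with earlier results of these data known, and lists are described by counts and medians without a test. Alternatives changed the centring, scaling, dye term, probes, minimum of arrays, moderation, weights, samples and block.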

Additional observations from a re-analysis of the deposited data

Results flagged for a closer look

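Among 111 sets of 4 arrays compared, 9 had 1 array far from the other 3. The cut-off flags about 1 set in 20 when the values are independent and share 1 mean. Here each set mixes both BCS 5 groups, the genes share arrays and some were picked for extreme values, so no chance rate is known. On the first B4F75 over B5F125 array, CENPP read 2.64 against 1.20 to 1.40 on the other 3 B4F75 arrays over the BCS 5 groups, RRM2 read 5.59 against −0.08 to 0.62, CKAP2 read 4.50 against 0.54 to 0.62, ALB read 2.13 against −0.65 to −0.25, DSE read 0.23 against −0.18 to −0.12, and the median of the DNA replication and G1/S list was 1.21 against −0.40 to −0.15. These 6 values therefore belong to 1 array. HIP1 read −1.25 on the second B4F125 over B5F125 array, against −0.62 to −0.50 on the other 3 B4F125 arrays. On the second B4F125 over B5F75 array, MTTP read −0.49 against 0.05 to 0.12, and DSE read −0.16 against −0.92 to −0.85.

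The interaction term in limma, the response to feeding in BCS 4 minus that in BCS 5 cows, was called for 5 of the named genes at an unadjusted p of at most 0.01, with no adjusted p below 0.9995. These genes had been named for their difference in BCS 4 cows, which is part of the term, so a call was favoured by that choice and a difference between BCS 4 and BCS 5 cows was not shown. S100A9 had a change of −2.16 (SE 0.61), KIF4A of −2.19 (SE 0.68), CEACAM19 of 1.36 (SE 0.43), GPC5 of 2.35 (SE 0.54) and WIPF2 of 3.42 (SE 0.58). S100A9 was below 0 on both B4F125 over B4F75 arrays, whereas the 2 B5F125 over B5F75 arrays read 0.31 and −0.73. These changes of single genes were not refitted without single arrays.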

How the results depend on the processing

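The counts of calls moved with the processing. They are out of 13868 genes, apart from settings that tested other numbers, so they are not all on like terms. Those were 25846 single probes, 11365 genes on all 12 arrays, 15528 with no minimum of arrays and 13840 with all 48 arrays. On spots with few whole-number ratios 9996 genes were tested, and with 1 array left out between 13396 and 13552. Called higher in B4F125 were 13 genes without a dye term, 53 of single probes, 12 by least squares, 48 with array weights, 41 with all 48 arrays and a random block for each pair of cows (correlation 0.15), and 0 at an adjusted p under 0.05, against 22, and 14 to 70 with 1 array left out. Called lower were 134 of single probes, 53 of the genes on all 12 arrays, 34 by least squares, 150 with array weights, 0 at an adjusted p under 0.05 and 19 on spots with few whole-number ratios (an alternative chosen after seeing the data), against 89, and 70 to 125 with 1 array left out. More positive in BCS 4 cows were 64 of single probes, 38 with no minimum of arrays, 49 with array weights, 44 with all 48 arrays and 0 at an adjusted p under 0.05, against 25, and 21 to 57 with 1 array left out. More negative were 136 of single probes, 43 of the genes on all 12 arrays, 39 by least squares, 137 with array weights, 0 at an adjusted p under 0.05 and 26 on spots with few whole-number ratios, against 82, and 57 to 114 with 1 array left out. The cell division list had 29 of 32 members below 0 on the genes with 12 values and 22 of 28 on the spots with few whole-number ratios, where fewer genes were tested, and 44 to 51 with 1 array left out. Signs turned for TBC1D10B (0.046) and NOS2 (0.095) on the probe with most arrays and on spots with few whole-number ratios, for ACACB on the same settings (−0.12) and on the direct arrays (−0.072), and for GAD2 on the probe with most arrays (0.20) and the indirect arrays (0.42). They also turned for PFKL with arrays scaled (−0.013), with weights (−0.16) and indirectly (−0.51), for APOB without centring (−0.021), with 48 arrays (−0.040) and indirectly (−0.038), for ALB indirectly (−0.23) and for CKS1B directly (−0.35). With 1 array left out, PFKL ranged from −0.41 to 0.26, GAD2 from −0.75 to 0.012, APOB from −0.077 to 0.11, PPARA from −0.33 to 0.0061, ALB from −0.10 to 0.45, CKS1B from −0.082 to 0.40 and SGOL2 from −0.017 to 0.23. The causes were not tested. A lone array of a pair is assumed to vary like the other pairs. No paired analysis was possible because each pair of cows is on 1 array of day 7. CENPP, RBM28, MSX1, GAS8, MATN1, HIP1, PAPPA, S100A9, GPC5, TTLL9 and SOS1 were called with any 1 of the 12 arrays left out. CXCR3, WIPF2, CCDC54 and N4BP3 have values on 8 arrays, the minimum, so they were not refitted without any of those. Dim spots limit the ratios of most called genes, and no depth beyond blanks and whole-number ratios could be read.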

Other observations

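Large gene families made by every cell sat slightly above 0 without any call. Of 71 cytosolic ribosomal protein genes 62 were above 0 in B4F125 minus B4F75 with a median of 0.13, and of 29 proteasome subunit genes 25 were above 0 with a median of 0.10, against 52.6% of all genes tested. Without the first direct array 28 of the ribosomal genes (median −0.04) and 13 of the proteasome genes (median −0.04) were above 0. On the 2 direct arrays the ribosomal median was 0.54 and −0.55, so these arrays opposed each other.

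Plasma protein and stromal genes were near 0 as well. Of 44 complement and coagulation genes 31 were above 0 (median 0.12), and of 13 iron handling genes 10 (median 0.14). Of 17 stellate cell and fibroblast markers 13 were below 0 (median −0.18), as were 18 of 26 genes of ER folding and the unfolded protein response (median −0.11) and 11 of 18 endothelial markers (median −0.10). In these lists 0 genes were called, and the range was −0.58 to 0.50 for the ER folding genes and −0.41 to 0.39 for the complement and coagulation genes.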
